A study of Mus musculus with 16 samples.

Results

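The 33 genes described here trace the oligodendrocyte lineage, from precursor cells to mature myelin, in the hypothalamus of mice. They were taken by symbol from a table of 47069 genes, and all 33 symbols were found. They comprise 3 precursor genes, 4 lineage transcription factors, 6 genes of newly forming oligodendrocytes, 13 myelin protein genes, 4 genes for enzymes of myelin lipids and 3 genes for secreted proteins of mature cells. Total RNA of the hypothalamus was sequenced, and all libraries share this tissue and the strain, C57BL/6N, an inbred laboratory mouse. No age, sex or feeding time stands in the labels. There were 8 diets. Diets with 60% of energy from fat held 1%, 2.5%, 5% or 20% of energy from protein, and diets with 20% of energy from fat held the same levels of protein. Each diet had 2 libraries, numbered 1 and 2 as replicates, so each protein level had 4 libraries and each fat level had 8. Whether both libraries of a diet came from different animals is not stated in the labels, and the p-values therefore cover the spread between these samples alone, which may be technical.

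Oligodendrocytes are the cells that wrap axons of the central nervous system in myelin, a membrane stack rich in galactolipids and in a few abundant proteins. They arise from proliferating precursors, which pass through a short-lived premyelinating state before they switch on the genes of the mature cell. In the adult hypothalamus precursors go on dividing and differentiating, and precursors of the median eminence have been linked to the sensing of nutrients and of leptin.

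Of the 33 genes, 31 passed the filter on low counts and had at least 10 counts in every library. Gpr17, a receptor gene of newly forming oligodendrocytes on chromosome 18 (31942997 to 31949636, GRCm38), had 0 counts in all 16 libraries. All of its exon bases (100%) lie under the span of Lims2 on the other strand, which had 266 to 461 counts. Trf, the gene for the iron carrier transferrin (chromosome 9, 103204001 to 103230444), had 1 to 4 counts, and 95.9% of its exon bases lie under the span of Gm20425, which had 0 to 6 counts. The length deposited with the table equals the whole genomic span of the gene for 26 of the 33 genes and for 85.5% of 46488 matched identifiers. Among 1426 coding genes with at least 95% of their exon bases under other spans, 87.3% had under 10 counts in all libraries together, against 25.6% of 14618 coding genes with none. The counts of Gpr17 and Trf are therefore not read as expression levels. In all, 14 of the 33 overlap another counted gene and 6 overlap a coding gene, namely Ermn, Tspan2, Bmp4, Cnp, Gpr17 and Trf, and their counts are uncertain to that extent. With the strand setting not stated, reads cannot be assigned to a strand where a gene overlaps another on the opposite strand, as for Ermn, Tspan2, Bmp4, Cnp and Gpr17. Spans of genes that code for no protein also lie opposite some members. They cover 51.3% of the exon bases of Nkx2-2, 29.8% of those of Bcas1, 7.26% for Olig1 and 4.66% for Enpp6. Coding partners on the opposite strand cover 20.6% for Ermn and 12.7% for Cnp. Opposite spans, 1 of them coding for each gene, cover 13.4% for Tspan2 and 3.96% for Bmp4. For Pdgfra, spans on both strands that code for no protein cover 7.93%. Gm20425 lies on the same strand as Trf.

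Totals ran from 17731242 to 18511818 counts per library. Values below are CPM, counts relative to the library total, scaled with TMM factors, and they are not divided by gene length, so levels of different genes are not compared. The mitochondrial share of counts was 1.54%, 1.61% and 1.78% in 3 libraries of 1% protein and 3.20% in the other one, library 2 of the diet with 20% fat. The remaining 12 libraries lay between 2.19% and 3.10%. In that same library and in library 2 at 20% fat/2.5% protein, 10 marker genes of cortical and hippocampal neurons summed to 712 and 1050 CPM, against 424 to 507 CPM in the other 14 libraries. Diets with 1% and 2.5% protein share the start of their diet code (D1412), and diets with 5% and 20% protein share another (D1407). The labels do not explain the code, so 1% against 20% protein cannot be told apart from the code.

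Among the genes that passed the test of 1% against 20% protein, 5 had the largest change of their stage, and the promoters of the 4 farthest from 0, Ugt8a, Klk6, Enpp6 and Ermn, are shown for that reason, without that of Ptprz1. Ugt8a is ENSMUSG00000032854 on chromosome 3 (125865271 to 125938619, minus strand), Klk6 is ENSMUSG00000050063 on chromosome 7 (43824499 to 43832030, plus strand), Enpp6 is ENSMUSG00000038173 on chromosome 8 (46986887 to 47096762, plus strand) and Ermn is ENSMUSG00000026830 on chromosome 2 (58045113 to 58052864, minus strand), all protein coding in GENCODE M21 (GRCm38). Each sequence runs from 250 bases before the RefSeq start to 50 bases after it, on the strand of the gene, in build GRCm38.p6, at chr3:125938603-125938902, chr7:43824294-43824593, chr8:46986637-46986936 and chr2:58052815-58053114 in that order. Klk6 has 2 starts in the RefSeq table, and the start nearest to the annotated one is shown. Capitals mark matches to the motifs searched on both strands, which were ACAAAG and ACAATG for SOX factors, CAGCTG and CATATG for E-box factors, and CTGGCAC and CTGGTAC for MYRF.
Ugt8a: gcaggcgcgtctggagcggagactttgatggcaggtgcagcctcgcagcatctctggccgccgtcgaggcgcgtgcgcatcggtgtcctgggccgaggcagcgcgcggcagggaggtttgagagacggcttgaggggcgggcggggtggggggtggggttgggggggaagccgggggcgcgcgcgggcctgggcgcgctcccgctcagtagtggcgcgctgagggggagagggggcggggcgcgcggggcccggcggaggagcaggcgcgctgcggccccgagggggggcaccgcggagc
Klk6: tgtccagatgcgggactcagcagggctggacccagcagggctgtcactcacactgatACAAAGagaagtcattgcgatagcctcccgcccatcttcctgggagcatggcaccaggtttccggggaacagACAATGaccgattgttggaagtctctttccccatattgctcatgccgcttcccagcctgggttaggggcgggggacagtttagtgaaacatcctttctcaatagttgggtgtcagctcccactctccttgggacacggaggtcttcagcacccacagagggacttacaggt
Enpp6: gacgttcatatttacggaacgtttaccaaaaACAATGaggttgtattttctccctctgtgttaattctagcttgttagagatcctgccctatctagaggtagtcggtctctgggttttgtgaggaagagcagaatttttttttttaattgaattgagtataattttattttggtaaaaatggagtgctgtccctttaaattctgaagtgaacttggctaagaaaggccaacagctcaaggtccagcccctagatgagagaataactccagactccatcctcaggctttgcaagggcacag
Ermn: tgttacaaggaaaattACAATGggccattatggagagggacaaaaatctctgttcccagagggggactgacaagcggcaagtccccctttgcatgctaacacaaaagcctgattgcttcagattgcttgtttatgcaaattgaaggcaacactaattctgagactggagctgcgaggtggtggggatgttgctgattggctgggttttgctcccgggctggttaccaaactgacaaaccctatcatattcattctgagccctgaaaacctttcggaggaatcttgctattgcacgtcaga

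The promoter of Klk6 held 2 SOX matches, those of Enpp6 and Ermn held 1 each, and that of Ugt8a held no match to any of the motifs. RefSeq promoters were matched for 25 of the 33 genes. A SOX motif stood in 12 of the 25 and in 28.6% of all 32851 promoters, an E-box motif in 5 of the 25 and in 19.8% of all, and a MYRF motif in 5 of the 25 and in 7.1% of all. The 25 are genes, counted where any of their promoters held a match, while the shares are of single promoters. Genes with more than 1 start had more chances of a match, so the counts and the shares are not compared. A match is a run of letters and not a shown binding site.

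At 1% against 20% protein, over both fat levels, 3 of 4 genes for enzymes of myelin lipids and 2 of 5 genes of newly forming cells tested fell. Of 13 myelin protein genes 2 fell and 2 rose, 1 of 3 precursor genes fell, and 0 of 4 lineage transcription factors passed. Of 2 genes for secreted proteins tested 1 fell and 1 rose. With p-values of edgeR's quasi-likelihood test adjusted over all 16646 genes tested (Benjamini-Hochberg), 12 of the 31 genes passed at 0.05, against 14.3% of all genes. Ugt8a, Klk6, Enpp6, Bmp4, Aspa, Ermn, Gjc3, Ptprz1 and Fa2h, 9 genes in all, fell, where 6.01% of all genes fell. Apod, Hapln2 and Mal, 3 genes, rose, where 8.26% of all genes rose. Without library 2 at 20% fat/1% protein 5 rose, and the share of all genes in that fit is not given. The median log2 change of the 31 genes was -0.09, beside 0.0035 over all genes tested. The 4 libraries at 1% protein lay wholly below the 4 at 20% protein for 8 of the 31 genes (6.35% of all genes tested did) and wholly above them for 3 (7.4% did), together 35.5%, against 13.8% of all genes tested. In a bulk sample, fewer cells of a type and less RNA per cell cannot be told apart.

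**Figure D1:**
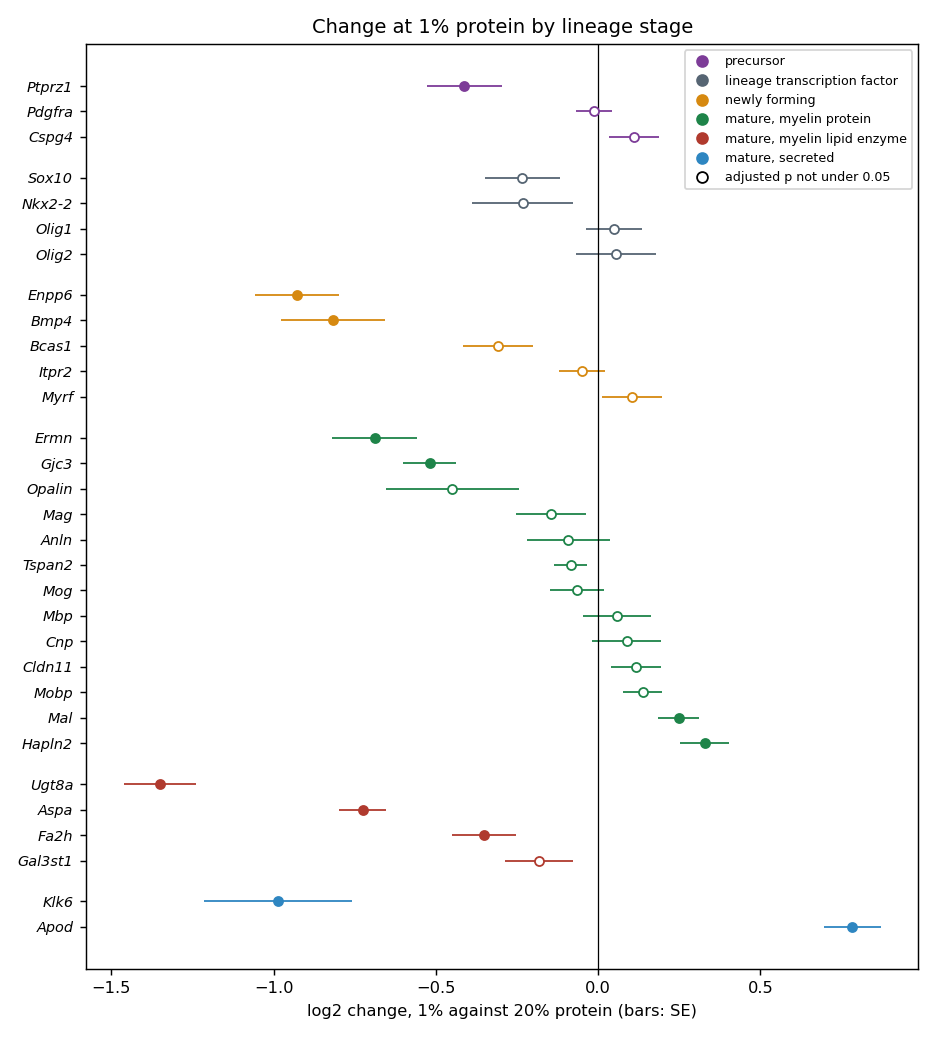
Log2 change at 1% against 20% protein for the 31 genes tested, grouped by stage from precursors at the top to secreted proteins at the bottom. Points are estimates of edgeR's fit, bars are SE, and filled points passed at an adjusted p of 0.05. The 3 filled points right of 0 are Apod, Hapln2 and Mal, and the other 9 filled points lie left of it, Ugt8a farthest at -1.35.

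Of the precursor genes, Pdgfra codes for the receptor of platelet-derived growth factor A, the main growth signal of these cells, and lies on chromosome 5 (75152292 to 75198215). Pdgfra stood at 74.7 and 66.4 CPM with 60% fat and at 71.6 and 67.8 CPM with 20% fat at 1% protein, against 74.1, 67.1, 67.6 and 74.2 CPM in the same order at 20% protein. The 4 libraries of a protein level are listed throughout as libraries 1 and 2 with 60% fat and then 1 and 2 with 20% fat. The groups at 1% and 20% protein overlapped, with means of 70.1 ± 3.77, 68.5 ± 2.19, 76.1 ± 3.76 and 70.8 ± 3.94 CPM at 1%, 2.5%, 5% and 20% protein (SD, n = 4 each). The log2 change at 1% against 20% protein was -0.01 (SE 0.056, adjusted p = 0.896 by edgeR's quasi-likelihood test).

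Cspg4, the gene for a surface proteoglycan of precursors and pericytes on chromosome 9 (56865033 to 56899870), stood at 46.3, 42.1, 40.4 and 34.1 CPM at 1% protein, against 39.2, 36.4, 38.5 and 36.5 CPM at 20% protein. Its highest and its lowest library were both at 1% protein, and the log2 change of 0.11 (SE 0.077) did not pass (adjusted p = 0.338, edgeR). Pdgfra also marks fibroblast-like cells. Beside both genes stand 10 markers of mural and fibroblast-like cells, of which 9 fell at 1% protein, where 6.01% of all genes fell. They summed to 185 to 213 CPM there, against 264 to 293 CPM at 20% protein. Their part in the levels of Pdgfra and Cspg4 was not tested.

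Ptprz1, a receptor tyrosine phosphatase gene of precursors and astrocytes on chromosome 6 (22875502 to 23052916), was the precursor gene that passed. Ptprz1 stood at 159 and 162 CPM with 60% fat and at 160 and 236 CPM with 20% fat at 1% protein, against 256, 223, 224 and 249 CPM at 20% protein. A single library at 1% protein, the one with the high mitochondrial share, reached the range of 20% protein, and Ptprz1 was the one gene of the 12 whose groups overlapped. It fell by 0.41 on the log2 scale (SE 0.12, adjusted p = 0.0286, edgeR). The call was lost when any of 5 libraries was left out, libraries 1 and 2 at 60% fat/1% protein, library 1 at 20% fat/1% protein, library 1 at 60% fat/20% protein and library 2 at 20% fat/20% protein, and with 1 surrogate variable. Of 9 astrocyte markers tested, Aldh1l1, Aldoc and Slc1a3 rose and Aqp4 fell by 0.86, where 8.26% of all genes rose and 6.01% fell. The part of these markers in the level of Ptprz1 was not tested.

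The lineage transcription factors did not pass in either direction (0 of 4, with 0 of 4 at an unadjusted p under 0.05, and 0 of 4 under each of DESeq2 and edgeR's likelihood ratio test). Olig1 and Olig2, basic helix-loop-helix factors of the whole lineage, had log2 changes of 0.05 and 0.06. Sox10, which is needed for myelin gene expression, and Nkx2-2, a homeodomain factor of differentiating precursors, both had a log2 change of -0.23. Over the 16 libraries Olig1 ranged from 292 to 440 CPM, Olig2 from 62.3 to 107 CPM, Sox10 from 81.7 to 144 CPM and Nkx2-2 from 6.70 to 11.4 CPM. The lowest library of Olig1, Olig2 and Sox10 was library 2 at 20% fat/1% protein.

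Genes of newly forming oligodendrocytes had a median log2 change of -0.31 over the 5 tested, and 2 of these 5 fell. Enpp6, a choline phosphodiesterase gene that marks premyelinating cells, stood at 2.87 and 3.77 CPM with 60% fat and at 3.43 and 3.69 CPM with 20% fat at 1% protein, against 6.45, 5.65, 6.60 and 7.52 CPM at 20% protein. All 4 libraries of 1% protein lay below every other library, since the lowest at 2.5% protein was 4.47 CPM and the lowest at 5% protein 4.27 CPM. Enpp6 fell by 0.93 (SE 0.13), a 1.90-fold difference (adjusted p = 0.000429, edgeR), and passed under each of 29 alternatives. Its counts ran from 51 to 141 per library.

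Bmp4 (chromosome 14, 46383520 to 46390669) codes for a bone morphogenetic protein, a ligand that holds precursors back from differentiation and is itself made by committed precursors. Bmp4 stood at 2.48, 1.69, 1.66 and 2.77 CPM at 1% protein, against 3.495, 3.32, 4.22 and 4.16 CPM at 20% protein, with 30 to 78 counts per library. These groups did not overlap, and means stood at 2.15 ± 0.561, 3.14 ± 0.393, 3.81 ± 0.288 and 3.80 ± 0.459 CPM at 1%, 2.5%, 5% and 20% protein (SD, n = 4 each). Bmp4 fell by 0.82 at 1% against 20% protein (SE 0.16, adjusted p = 0.00429, edgeR).

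Bcas1 (chromosome 2, 170346991 to 170427845), which marks premyelinating and freshly myelinating cells, stood at 264, 264, 218 and 162 CPM at 1% protein, against 272, 263, 303 and 273 CPM at 20% protein. Its level was low in the 20% fat libraries of 1% protein and within the range of 20% protein in the 60% fat libraries. The log2 change over both fat levels was -0.31 (SE 0.11, adjusted p = 0.0653, edgeR), a call that passed under 9 of 29 alternatives. Myrf, the transcription factor that switches on myelin genes, and Itpr2, a calcium channel of the endoplasmic reticulum, had log2 changes of 0.10 and -0.05 and did not pass.

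**Figure D2:**
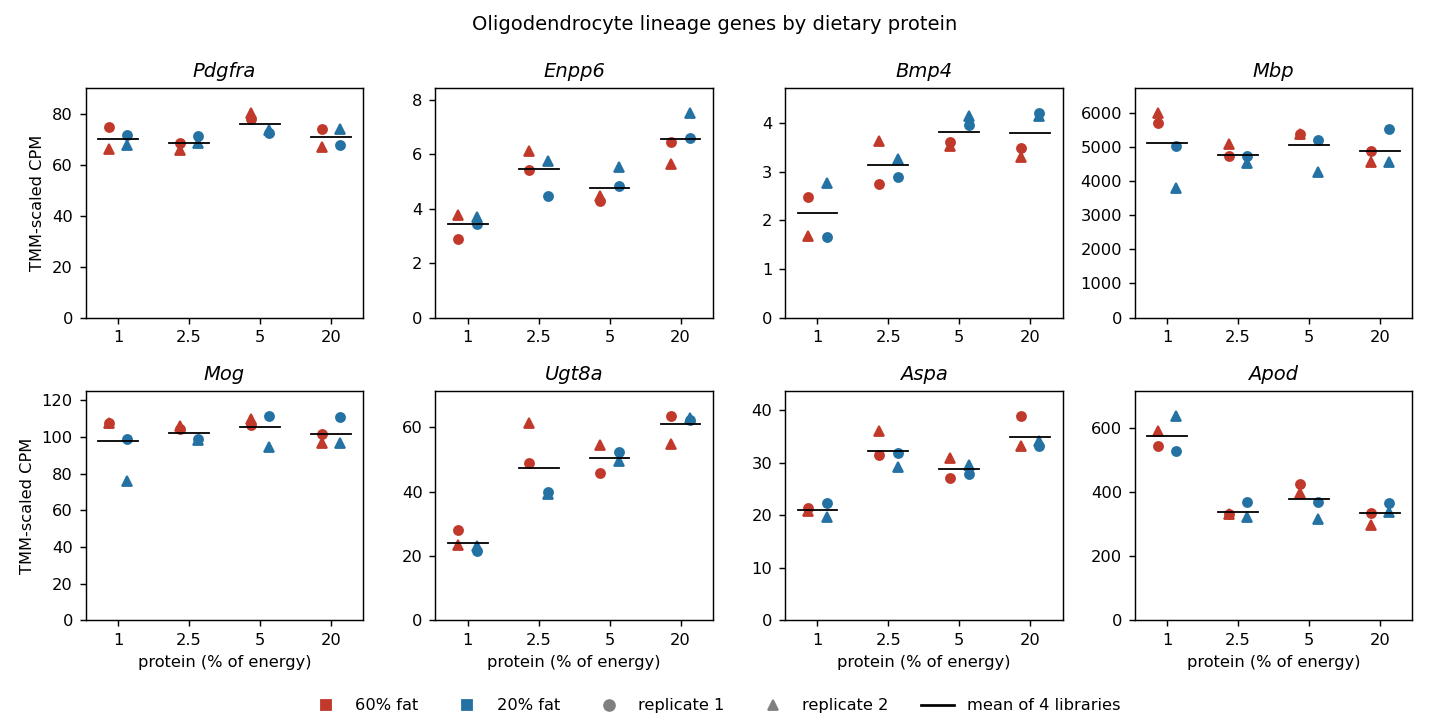
TMM-scaled CPM of 8 genes in each of the 16 libraries by protein as percent of energy, with a vertical axis per gene that starts at 0. Colours give the fat level, symbols the replicate number and lines the mean of 4 libraries. For Enpp6, Ugt8a and Aspa all libraries at 1% protein lie below all others, for Apod they lie above all others, and for Pdgfra, Mbp and Mog the levels overlap.

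Of the 13 myelin protein genes, 2 rose, 2 fell and 9 did not pass, with a median log2 change of -0.06. Mbp (chromosome 18, 82475146 to 82585637), whose protein holds the membrane layers of myelin together, stood at 5694 and 6004 CPM with 60% fat and at 5040 and 3791 CPM with 20% fat at 1% protein, against 4885, 4566, 5543 and 4565 CPM at 20% protein. Its 2 highest libraries and its lowest library were all at 1% protein, and the log2 change was 0.06 (SE 0.10, adjusted p = 0.741, edgeR). Mog (chromosome 17, 37010743 to 37023398), a glycoprotein of the outer face of myelin, stood at 107, 108, 98.9 and 76.2 CPM at 1% protein, against 102, 97.0, 111 and 97.0 CPM at 20% protein. The groups overlapped, with a log2 change of -0.06 (SE 0.083, adjusted p = 0.625, edgeR). Mog passed under 4 of 29 alternatives, as lower with the mitochondrial share as a covariate (-0.21), with 1 surrogate variable (-0.24) and without the 3 libraries of 1% protein with a low mitochondrial share (-0.41), and as higher with the level of other mature genes as a covariate (0.22).

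Mag, a myelin protein that faces the axon, ranged from 271 to 491 CPM over the 16 libraries, and Cnp, an enzyme of the myelin cytoplasm, from 500 to 793 CPM. Mobp, Cldn11 of the myelin tight junctions, Opalin, Anln and Tspan2 likewise did not pass, and the log2 changes of these 7 genes ran from -0.45 for Opalin to 0.14 for Mobp. The lowest values of Mag, Mog, Mbp, Cnp and Opalin all came from library 2 at 20% fat/1% protein, where Opalin stood at 11.9 CPM.

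Ermn and Gjc3 were the myelin protein genes that fell. Ermn codes for ermin, a cytoskeletal protein of mature oligodendrocytes, and stood at 41.9, 43.3, 40.6 and 58.1 CPM at 1% protein, against 82.0, 59.4, 75.5 and 79.6 CPM at 20% protein. The highest library of 1% protein, again the one with the high mitochondrial share, lay just below the lowest of 20% protein. Ermn fell by 0.69 (SE 0.13, adjusted p = 0.00342, edgeR). Gjc3 (chromosome 5, 137953461 to 137963098), a connexin gene of oligodendrocytes, stood at 70.6, 68.5, 68.6 and 79.8 CPM at 1% protein, against 109, 89.5, 103 and 111 CPM at 20% protein. No library of 1% protein reached those of 20% protein, and Gjc3 fell by 0.52 (SE 0.082, adjusted p = 0.000948, edgeR).

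Hapln2 and Mal were the myelin protein genes that rose. Hapln2 (chromosome 3, 88021750 to 88027583), a link protein of the matrix at the nodes of Ranvier, stood at 103, 102, 103 and 105 CPM at 1% protein, against 82.7, 69.8, 90.1 and 86.2 CPM at 20% protein. Its 4 libraries at 1% protein were close together (SD 1.29 CPM, against 8.81 CPM at 20% protein), and the rise was 0.33 (SE 0.076, adjusted p = 0.0112, edgeR). Mal (chromosome 2, 127633226 to 127656695), a proteolipid of myelin membrane domains, stood at 370, 414, 426 and 371 CPM at 1% protein, against 325, 322, 351 and 334 CPM at 20% protein. The groups did not overlap, and Mal rose by 0.25 (SE 0.063, adjusted p = 0.0185, edgeR). The call for Mal was lost without library 2 at 60% fat/1% protein, library 1 at 20% fat/1% protein, either library at 60% fat/20% protein or library 2 at 20% fat/20% protein. It was also lost with the mitochondrial share of the libraries as a covariate (0.19) and with 1 surrogate variable (0.19).

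Of the 4 genes for enzymes of myelin lipids, 3 fell, none rose, and the median log2 change was -0.54. Ugt8a codes for the galactosyltransferase that makes galactosylceramide, the leading galactolipid of myelin. Ugt8a stood at 27.97 and 23.5 CPM with 60% fat and at 21.5 and 23.01 CPM with 20% fat at 1% protein, against 63.5, 54.8, 62.3 and 63.0 CPM at 20% protein. Its highest library at 1% protein lay below the lowest at 2.5% (39.4 CPM) and at 5% protein (45.8 CPM). Means stood at 23.99 ± 2.78, 47.3 ± 10.2, 50.5 ± 3.72 and 60.9 ± 4.09 CPM at 1%, 2.5%, 5% and 20% protein (SD, n = 4 each). Ugt8a fell by 1.35 (SE 0.11), a 2.55-fold difference (adjusted p = 3.5e-06, edgeR), the farthest of the 31 genes from 0.

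Aspa (chromosome 11, 73304992 to 73329596) codes for the enzyme that splits N-acetylaspartate and so frees acetate that oligodendrocytes can use for lipid synthesis. Aspa stood at 21.3, 20.8, 22.4 and 19.7 CPM at 1% protein, against 39.0, 33.2, 33.2 and 34.1 CPM at 20% protein. All libraries of 1% protein lay below the other 12, whose lowest was 27.2 CPM at 5% protein, and Aspa fell by 0.73 (SE 0.074), a 1.65-fold difference (adjusted p = 2.67e-05, edgeR). Fa2h (chromosome 8, 111345135 to 111393824), which hydroxylates the fatty acids of these lipids, stood at 75.9, 74.9, 67.7 and 53.4 CPM at 1% protein, against 85.4, 81.9, 94.4 and 83.2 CPM at 20% protein. The groups did not overlap, and Fa2h fell by 0.35 (SE 0.098, adjusted p = 0.0269, edgeR), a call lost without library 1 at 20% fat/1% protein or either library at 20% fat/20% protein. Gal3st1, which adds sulfate to galactosylceramide, had a log2 change of -0.18 and did not pass (adjusted p = 0.243, edgeR).

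The secreted proteins moved in opposite directions. Apod (chromosome 16, 31296192 to 31314808), a lipocalin that carries small lipids, stood at 542 and 592 CPM with 60% fat and at 528 and 638 CPM with 20% fat at 1% protein, against 335, 297, 365 and 339 CPM at 20% protein. Its lowest library at 1% protein exceeded every other library, of which the highest was 426 CPM at 5% protein. Apod rose by 0.78 (SE 0.087), a 1.72-fold difference (adjusted p = 6.35e-05, edgeR). Klk6, a serine protease gene of mature oligodendrocytes, stood at 9.62 and 9.51 CPM with 60% fat and at 8.18 and 5.10 CPM with 20% fat at 1% protein, against 13.4, 13.4, 21.6 and 15.04 CPM at 20% protein. The groups did not overlap, and Klk6 fell by 0.99 (SE 0.23), a 1.98-fold difference (adjusted p = 0.0111, edgeR).

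**Figure D3:**
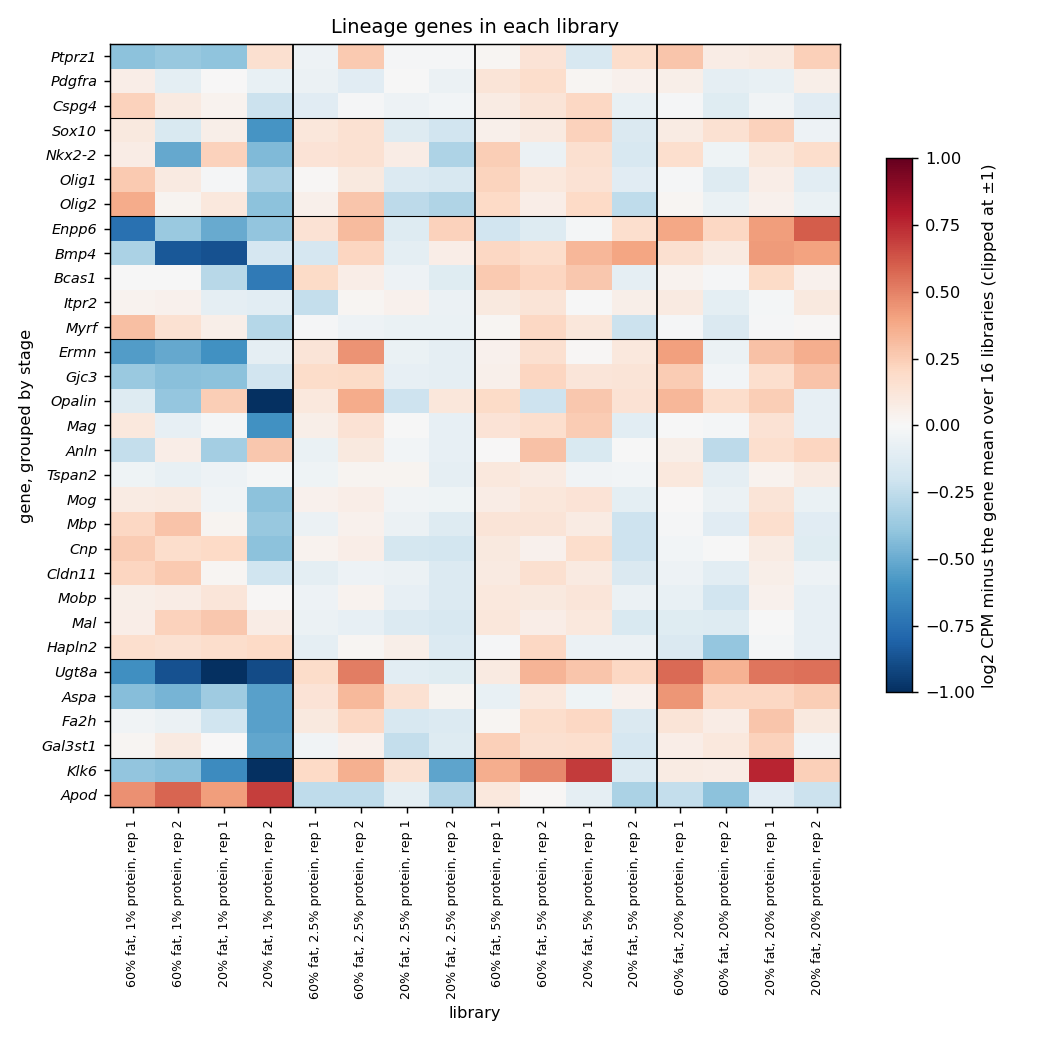
Log2 CPM of each of the 31 genes minus its mean over the 16 libraries, with genes in rows by stage and libraries in columns by protein level, low to high. Blue is below the gene's mean and red above it, and colours stop at 1 log2 unit either way. Ugt8a, Aspa and Enpp6 are blue and Apod is red in all 4 columns at 1% protein, and the fourth of these columns is also blue for Sox10, Bcas1, Opalin and Mag.

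The means at 2.5% and 5% protein lay between those at 1% and 20% protein for every gene that fell except Bmp4 and Klk6, whose mean at 5% lay above that at 20%. Enpp6 averaged 3.44 ± 0.407, 5.45 ± 0.717, 4.77 ± 0.554 and 6.56 ± 0.766 CPM at 1%, 2.5%, 5% and 20% protein, and Aspa 21.1 ± 1.14, 32.2 ± 2.85, 28.9 ± 1.7 and 34.9 ± 2.77 CPM (SD, n = 4 each, here and in the values that follow). For both genes 2.5% protein stood higher than 5% protein. Ermn averaged 46.0 ± 8.13, 67.3 ± 12.3, 65.3 ± 3.02 and 74.1 ± 10.2 CPM at the 4 levels in the same order, and Gjc3 71.9 ± 5.4, 94.9 ± 10.4, 99.9 ± 4.58 and 103 ± 9.65 CPM. Ptprz1 averaged 179 ± 37.9, 219 ± 22.9, 218.5 ± 22.2 and 238 ± 17.1 CPM. Fa2h averaged 68.0 ± 10.4, 78.5 ± 9.83, 81.8 ± 9.01 and 86.2 ± 5.63 CPM, and Klk6 8.10 ± 2.11, 13.5 ± 3.24, 16.6 ± 3.81 and 15.9 ± 3.9 CPM. The step from 1% to 2.5% protein was the largest of the 3 steps for each of these genes.

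The genes that rose had their highest mean at 1% protein. Apod averaged 575 ± 50.1, 338 ± 20.6, 378 ± 46.3 and 334 ± 27.9 CPM at 1%, 2.5%, 5% and 20% protein, Hapln2 103 ± 1.29, 89.3 ± 5.69, 92.9 ± 8.36 and 82.2 ± 8.81 CPM, and Mal 395 ± 28.9, 327 ± 10.7, 362 ± 29.8 and 333 ± 13.1 CPM. Their means at 2.5% protein lay below those at 5% protein. Among genes that did not pass at 1% against 20% protein, Cspg4 averaged 40.7 ± 5.09, 38.1 ± 1.15, 41.998 ± 3.35 and 37.7 ± 1.44 CPM and Bcas1 227 ± 48.4, 269.5 ± 26.2, 298 ± 33.5 and 278 ± 17.2 CPM at the same levels. Mbp averaged 5132 ± 980, 4771 ± 235, 5060 ± 538 and 4890 ± 461 CPM, and Mog 97.6 ± 14.8, 102 ± 3.99, 106 ± 7.62 and 102 ± 6.57 CPM. For Bcas1, Mbp and Mog the SD was highest at 1% protein, where library 2 at 20% fat lay low.

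At the intermediate protein levels no gene of the 33 passed the test against 20% protein. At 2.5% against 20% protein 0 of the 31 genes passed (0.00601% of all genes did), with 2 of 31 at an unadjusted p under 0.05, and at 5% against 20% protein 0 passed (0.03% of all genes, 0.018% higher and 0.012% lower), with 5 at an unadjusted p under 0.05. DESeq2 and edgeR's likelihood ratio test also called 0 in both. Ugt8a had log2 changes of -0.38 (SE 0.11) at 2.5% and -0.27 (SE 0.11) at 5% protein against 20%, and Enpp6 of -0.26 (SE 0.12) and -0.46 (SE 0.13). Fitted as a straight line over protein, scaled to the change from 20% to 1%, 0 of the 31 genes passed (0.018% of all genes, 0.012% higher and 0.00601% lower), with 10 at an unadjusted p under 0.05. Ugt8a had the steepest slope at -0.79 (SE 0.23, adjusted p = 0.189, edgeR). With protein on a log2 scale 8 genes passed as lower, against 3.62% of all genes, and 2 as higher, against 4.26% of all genes.

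Between 1% and 2.5% protein, diets whose codes share the same start, 7 of the 31 genes passed, 2 higher and 5 lower, against 2.32% of all genes, 1.39% higher and 0.931% lower. Ugt8a fell by 0.97 (SE 0.11), Enpp6 by 0.66 (SE 0.13), Aspa by 0.61 (SE 0.074), Ermn by 0.55 (SE 0.13) and Gjc3 by 0.40 (SE 0.082). Apod rose by 0.77 (SE 0.087) and Mal by 0.27 (SE 0.063). Adjusted p-values of edgeR's quasi-likelihood test for these 7 genes ran from 0.000431 for Ugt8a and Apod to 0.0360 for Ermn. The libraries of 1% protein serve in both comparisons, so the 2 sets of changes are not independent.

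Ugt8a, Aspa and Apod kept this call at 1% against 2.5% protein under all 28 alternatives. The number of genes that fell there ranged from 2 to 7 as each library was left out, with the shares of all genes not given. It was 2 without library 1 at 60% fat/1% protein, library 2 at 60% fat/2.5% protein or library 1 at 20% fat/1% protein, and 3 without library 2 at 60% fat/1% protein or library 1 at 60% fat/2.5% protein.

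The fat content of the diet gave no call for these genes. At 60% against 20% fat, over all protein levels, 0 of the 31 genes passed (0.00601% of all genes did), with 5 at an unadjusted p under 0.05 and 0 calls by DESeq2 or edgeR's likelihood ratio test. Of the 31 log2 changes 26 were positive, with a median of 0.07 beside -0.0044 over all genes tested. The highest was that of Olig2 at 0.23 (SE 0.087, adjusted p = 0.628, edgeR). The 2 libraries with raised cortical markers were both among the 8 of 20% fat, and their part in this was not tested.

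Within 60% fat, 1% against 20% protein called 7 of the 31 genes, 2 higher and 5 lower, against 4.25% of all genes, 1.97% higher and 2.28% lower. Within 20% fat it called 8, 1 higher and 7 lower, against 1.78% of all genes, 0.601% higher and 1.18% lower. Ugt8a fell by 1.202 (SE 0.12) within 60% fat and by 1.49 (SE 0.13) within 20% fat, Aspa by 0.78 (SE 0.11) and 0.68 (SE 0.11), Enpp6 by 0.87 (SE 0.18) and 0.99 (SE 0.18), and Gjc3 by 0.51 (SE 0.097) and 0.53 (SE 0.097). Apod rose by 0.84 (SE 0.11) within 60% fat and by 0.73 (SE 0.11) within 20% fat. Ermn (fell by 0.73) and Hapln2 (rose by 0.42) passed within 60% fat. Klk6 (fell by 1.46), Bcas1 (fell by 0.60) and Fa2h (fell by 0.55) passed within 20% fat.

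A gene that passed within 1 fat level was not shown to differ between them, since 0 of the 31 genes passed the test of that difference itself (0% of all genes did), with 8 at an unadjusted p under 0.05 and 0 by DESeq2 or edgeR's likelihood ratio test. The differences, 60% fat minus 20% fat, were 0.98 for Klk6 (SE 0.40), 0.58 for Bcas1 (SE 0.18) and 0.50 for Mbp (SE 0.18), with an adjusted p of 0.623 for each. The median difference over the 31 genes was 0.21, beside 0.0049 over all genes tested. Without library 1 at 20% fat/1% protein, which leaves that diet to the library with cortical markers, assumed to vary like the others, 4 genes passed as higher. Fits without 1 library leave 1 library in that diet. The share of all genes called is not given for them, so their counts show only how the calls moved. The calls within 60% fat also rested on single libraries. The number that fell ranged from 1 to 8, with 1 left without library 2 at 60% fat/1% protein or library 1 at 60% fat/20% protein, 2 left without library 1 at 60% fat/1% protein, and 8 without either library at 20% fat/1% protein. Within 20% fat it ranged from 2 to 9, with 2 left without library 2 and 3 left without library 1 at 20% fat/20% protein.

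**Figure D4:**
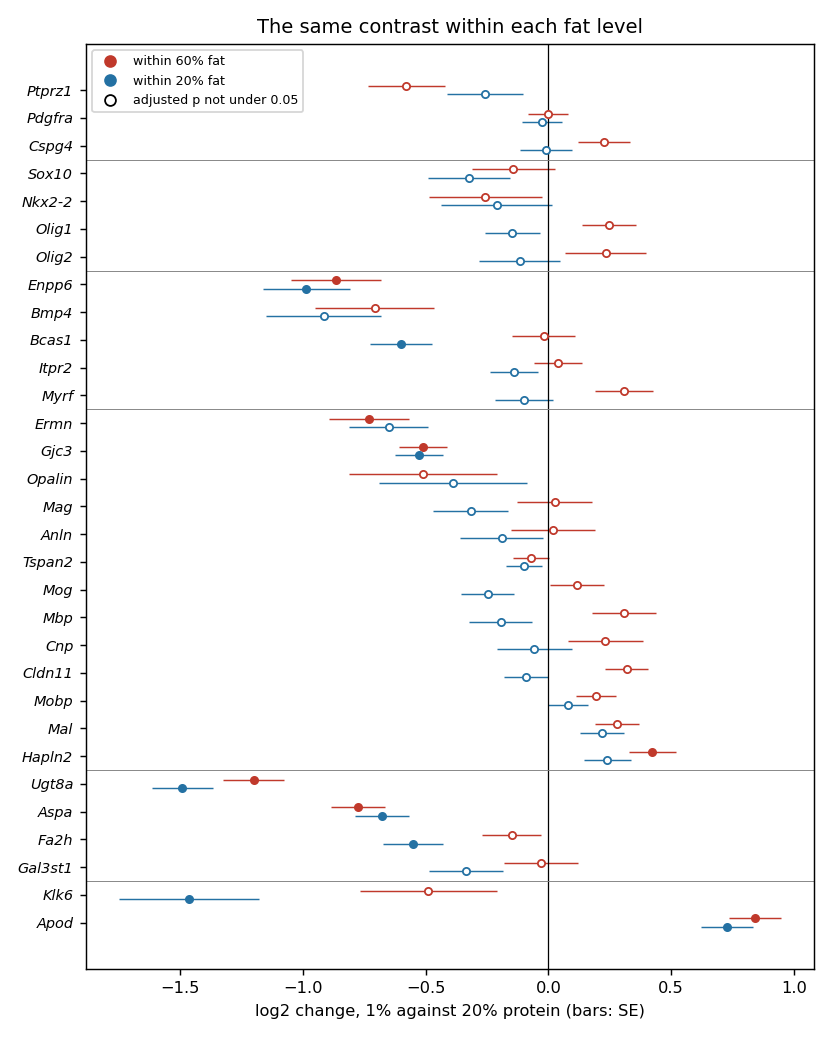
Log2 change at 1% against 20% protein within 60% fat (red, upper of each pair) and within 20% fat (blue, lower) for the 31 genes, with SE as bars and filled points for an adjusted p under 0.05. Ugt8a, Aspa, Enpp6, Gjc3 and Apod are filled at both fat levels, and 15 of the 31 points at 60% fat and 4 of the 31 at 20% fat lie right of 0.

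Other genes of the lineage, taken from lists of genes outside the 33, were fitted in the same test of 1% against 20% protein. In that test 8.26% of all genes rose and 6.01% fell, and the counts of each list stand beside these shares. Of 29 other mature oligodendrocyte genes tested, 0 rose and 11 fell, with a median of -0.22 on the log2 scale. Car2, a carbonic anhydrase gene, fell by 0.66 (SE 0.094), Enpp2 by 0.46 (SE 0.076), Adamts4, a metalloproteinase gene, by 0.62 (SE 0.11) and Tppp, which binds tubulin, by 0.20 (SE 0.043). Car2 stood at 197, 188, 155 and 123 CPM at 1% protein, against 268, 246, 281 and 239 CPM at 20% protein, without overlap. Adjusted p-values of edgeR's quasi-likelihood test for these 4 genes ran from 0.000456 for Car2 to 0.00804 for Tppp.

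Of 15 other precursor genes tested, 0 rose and 3 fell, namely Rlbp1 by 0.56, Tmem100 by 0.54 and Pcdh15 by 0.47. Of 13 other genes of newly forming cells, Tcf7l2 (0.62), Mycl (0.50) and Tmem163 (0.26) rose and Lims2 fell by 0.36. The span of Lims2 holds Gpr17 on the other strand, and the strand setting is not stated, so the count of Lims2 is uncertain too. Tcf7l2, a Wnt effector, is also strongly expressed by thalamic neurons, of whose 8 markers 3 rose (Prkcd, Ramp3 and Gbx2), where 8.26% of all genes rose. These 8 markers summed to 932 to 1222 CPM at 1% protein, against 790 to 895 CPM at 20% protein. Their part in the rise of Tcf7l2 was not tested.

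Of 30 genes for signals that act on the lineage, Thra, a thyroid hormone receptor gene, rose by 0.28 and Id4, an inhibitor of differentiation, by 0.24. Erbb3, a neuregulin receptor gene, fell by 0.54, Bmpr1b, a receptor gene for bone morphogenetic proteins such as Bmp4, by 0.46, the Notch ligand gene Jag1 by 0.32 and the Wnt inhibitor gene Apcdd1 by 0.31. Over the 4 lists 5 genes rose (8.26% of all genes did) and 19 fell (6.01% did), and both counts moved with single libraries. Without library 2 at 20% fat/1% protein 10 rose and 30 fell, and without library 2 at 20% fat/20% protein 2 rose and 11 fell. The shares of all genes in both fits are not given.

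**Figure D5:**
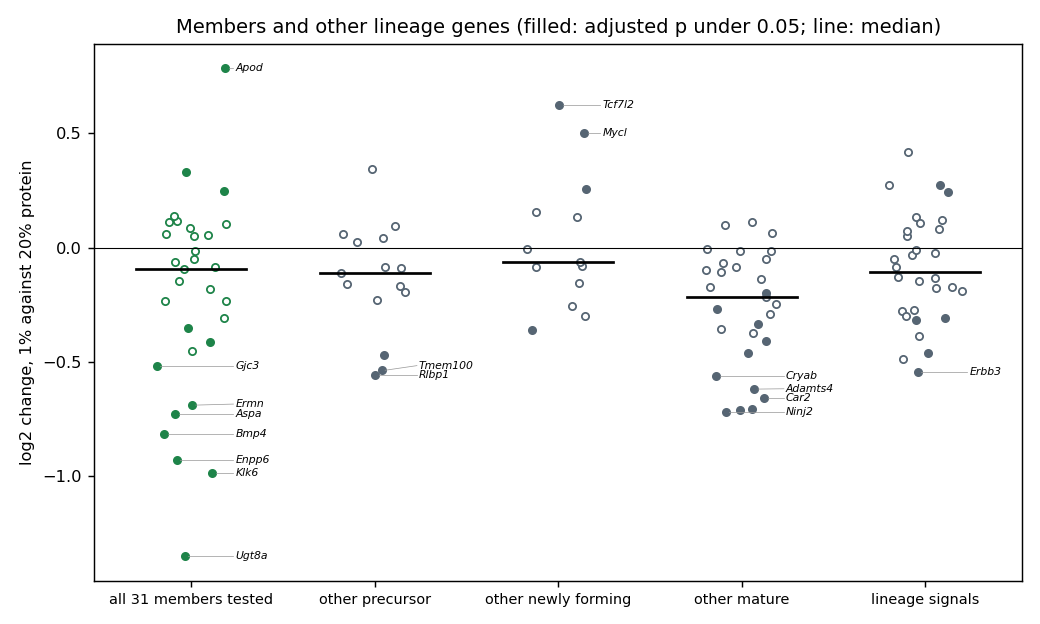
Log2 change at 1% against 20% protein of the 31 genes and of 4 lists of other genes of the lineage and of signals that act on it. Each point is a gene, filled points passed at an adjusted p of 0.05, black lines are medians, and names are given only for genes that passed with a change beyond 0.5 either way, though not for every such gene of the other lists. The 29 other mature genes have a median of -0.22, with 0 filled points above 0.

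Markers of other cell types were read in the same fit, in which 8.26% of all genes rose and 6.01% fell. Of 9 endothelial markers 8 fell, with sums of 166 to 182 CPM at 1% protein, against 216 to 254 CPM at 20% protein. Of 11 markers of hypothalamic neurons 2 rose and 3 fell, and of 7 choroid plexus markers 1 rose and 0 fell. The choroid plexus markers summed to 52.9 to 263 CPM at 1% protein, against 48.0 to 59.7 CPM at 20% protein. None of 8 striatal, 7 ependymal and tanycyte and 5 pituitary markers passed. By edgeR's quasi-likelihood test 0 of 7 microglial markers, 0 of 10 cortical and hippocampal markers and 0 of 7 markers of Schwann cells, the myelinating cells of peripheral nerve, passed, with 2, 1 and 2 of them in that order at an unadjusted p under 0.05. The Schwann cell markers summed to 20.7 to 35.8 CPM at 1% protein, against 26.5 to 33.2 CPM at 20% protein. Among them Pmp2 was at 0 in all libraries. Gfap of the astrocyte list and P2ry12 of the microglial list were also at 0 in all libraries and were not tested. Such zeros are not read as expression levels.

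Across the 16 libraries Mag and Mog rose and fell together (Pearson r = 0.943, Spearman rho = 0.806, adjusted p = 6e-05 and 0.00126 by permutation tests, two-sided, adjusted over the 6 pairs examined), also as differences between the replicates of a diet (r = 0.921 over 8 diets, adjusted p = 0.0129 by an exact permutation test). Without the 2 libraries farthest from the median of Mag, r was 0.787. Within code D1412 r was 0.937 and rho 0.476, which did not pass (adjusted p = 0.0903 and 0.486 by exact permutation tests), and within code D1407 r was 0.965 and rho 0.976 (adjusted p = 0.00253 and 0.00238 by exact permutation tests). Enpp6 and Bmp4, both of newly forming cells, had r = 0.720 and rho = 0.715 over the 16 libraries (adjusted p = 0.00372 and 0.00717 by permutation tests), and 0.642 without the 2 libraries farthest from the median of Enpp6. Within code D1412, with 8 libraries, r was 0.685 and rho 0.786 (adjusted p = 0.165 and 0.168 by exact permutation tests), and within code D1407 r was 0.405 and rho 0.381 (adjusted p = 0.366 and 0.540 by exact permutation tests), so the relation did not pass within either code. As differences between the replicates of a diet r was -0.19 (adjusted p = 0.935 by an exact permutation test). Both genes fell at 1% protein, and the permutations over the 16 libraries did not keep diets together. Their p-values over the 16 libraries therefore do not separate a relation of the genes from the shared difference between diets. Pdgfra and Cspg4 had r = 0.457 and rho = 0.424 (adjusted p = 0.153 and 0.208 by permutation tests). Pdgfra with Enpp6 (r = -0.16, rho = -0.19), Pdgfra with Mog (r = 0.222, rho = 0.0882) and Enpp6 with Mog (r = 0.0841, rho = -0.12) did not pass (adjusted p from 0.637 to 0.769 for r and from 0.724 to 0.746 for rho by permutation tests).

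The calls at 1% against 20% protein were set against the makeup of the libraries. Ugt8a, Aspa, Enpp6 and Apod passed under all 29 alternatives, with ranges of log2 change from -1.44 to -1.17 for Ugt8a, from -0.79 to -0.66 for Aspa, from -1.01 to -0.80 for Enpp6 and from 0.72 to 0.93 for Apod. Without the 3 libraries of 1% protein with a low mitochondrial share, which leaves 1 library at 1% protein, assumed to vary like the others, Bmp4, Ermn, Gjc3 and Hapln2 no longer passed (log2 changes of -0.53, -0.32, -0.35 and 0.33). Ptprz1 stood at 0.01 and Mal at 0.17 in that fit and did not pass either. Klk6 and Fa2h still passed there, at -1.64 and -0.66. With the mitochondrial share as a covariate 14 of the 31 genes fell, against 4.67% of all genes, and 12 fell within 20% fat, against 2.92%. With 1 surrogate variable 14 fell, against 4.69% of all genes, and 13 fell within 20% fat, against 3.42%.

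In each library the deviations of the genes tested from their means were correlated with deposited gene length. Spearman rho was -0.26, -0.17, -0.26 and 0.17 at 1% protein, against 0.23, -0.05, -0.10 and 0.32 at 20% protein. With gene length as an offset, 11 of the 12 genes passed, all but Fa2h (adjusted p = 0.0638, edgeR). With the mean level of the other mature oligodendrocyte genes as a covariate, Ugt8a, Aspa and Enpp6 remained lower, Klk6 (-0.25) and Fa2h (-0.02) no longer passed, and 7 genes passed as lower, against 15.8% of all genes, and 13 as higher, against 17.3% of all genes. That covariate itself fell at 1% protein, since 11 of its 29 genes did.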

How the data were processed

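The authors deposited 1 table of raw gene counts, not normalized, for 16 libraries of total RNA. Per the submitters' processing notes the aligner named is HISAT2 2.1.0, the counter is featureCounts (Subread 5.0) and the build is GRCm38, beside FastQC, SAMtools 1.2 and edgeR. Genes were kept with filterByExpr of edgeR 4.0.16 (R 4.3.3, minimum count 10), scaled with TMM factors and tested with the quasi-likelihood F test on all 16 libraries, adjusted over 16646 genes by Benjamini-Hochberg. Protein as 4 levels with fat gave the contrasts of protein and of fat, the 8 diets gave those within fat levels, and the straight line followed the series' design text, with the interaction dropped for genes where its p was above 0.05. The fits were tested on simulated counts. Log2 CPM used a prior count of 2. Alternatives used DESeq2 1.42.0 and sva 3.50.0. Positions are from GENCODE M21, promoters from RefSeq. Values are given for Pdgfra, Cspg4, Enpp6, Bmp4, Gpr17, Bcas1, Mbp, Mog and every member that passed a test, other members by range, and up to 6 genes per other list and direction by adjusted p, of which some are not reported here. Members, lists and tests were chosen with earlier results of these data known.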

Additional observations from a re-analysis of the deposited data

Results flagged for a closer look

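In 10 of 72 groups of 4 libraries at a protein level, 1 library lay far from the other 3 by Dixon's criterion, which chance meets in about 1 group in 20. Library 2 at 20% fat/1% protein stood apart for Ptprz1 at 235.8 CPM, against 158.6 to 162 CPM in the other libraries of 1% protein, and for Ermn at 58.06 CPM, against 40.63 to 43.33 CPM. The same library had a mitochondrial share of 3.197%, against 1.538% to 1.776%. At 2.5% protein, Ptprz1 stood at 253.2 CPM in library 2 at 60% fat, against 203.8 to 210 CPM, and Apod at 368.5 CPM in library 1 at 20% fat, against 322.8 to 330.5 CPM. At 5% protein, library 2 at 20% fat was low for Mbp at 4263 CPM, against 5210 to 5383 CPM, and for Mal at 317.7 CPM, against 370.3 to 380.9 CPM, while Hapln2 stood at 105.3 CPM in library 2 at 60% fat, against 87.91 to 90.55 CPM. At 20% protein, Ugt8a stood at 54.81 CPM in library 2 at 60% fat, against 62.27 to 63.55 CPM, and Aspa at 38.98 CPM in library 1 at 60% fat, against 33.17 to 34.14 CPM.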

How the results depend on the processing

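For 1% against 20% protein, the number of the 31 genes that fell stayed between 7 and 14 over 29 alternatives, and the number that rose between 1 and 13. With 1 library left out they ran from 7 to 9 and from 2 to 5. Below, fell and rose give the number of genes past the threshold, and the cause of each shift was not tested. Where no share of all genes stands beside a count of an alternative, the count shows only how the calls moved. Differences between replicates correlated over 0.1 in 7 of 28 pairs of diets (median 0.02, range -0.17 to 0.34). The main fit did not pair libraries by replicate number, and the labels do not say what libraries of the same number share. Both libraries with raised cortical markers were numbered 2. With the replicate number as a block, 10 genes fell and 3 rose, with Bcas1 added.

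With the mitochondrial share as a covariate, 14 genes fell at 1% against 20% protein (4.67% of all genes did), 12 fell within 20% fat (2.92% of all genes did), 2 fell and 1 rose within 60% fat, 1 rose at 1% against 2.5% protein and 2 of the other lineage genes rose, while Mbp stood at -0.11 and Cspg4 at -0.00366. With 1 surrogate variable, 14 fell (4.69% of all genes did), 13 fell within 20% fat (3.42% of all genes did), 1 rose within 60% fat, 8 fell and 1 rose at 1% against 2.5% protein and 2 of the other lineage genes rose, while Mbp stood at -0.15 and Cspg4 at -0.031. With the level of the other mature genes as a covariate, 13 rose at 1% against 20% protein, at 1% against 2.5% protein and within 60% fat, 4 rose within 20% fat and 14 of the other lineage genes rose, while Bcas1 stood at 0.046, Pdgfra at 0.00262 and Mog at 0.22.

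Without the 2 libraries with cortical markers, 6 rose at 1% against 20% protein, 8 fell and 4 rose at 1% against 2.5% protein, 8 fell and 4 rose within 60% fat, 31 of the other lineage genes fell and 11 rose, and Mog stood at 0.027. Without the 3 libraries of 1% protein with a low mitochondrial share, a choice made after seeing the data, 1 rose at 1% against 20% and at 1% against 2.5% protein, 0 of the other lineage genes rose, Cspg4 stood at -0.15, Ptprz1 at 0.012 and Mbp at -0.35. With a length offset Pdgfra stood at 0.031. Within 60% fat 4 rose by the likelihood ratio test and 5 with no filter on low counts. For the straight line, DESeq2 and the likelihood ratio test called 1 gene lower each, and protein on a log2 scale called 8 lower and 2 higher.

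With 1 library left out, fell ran from 2 to 7 and rose from 1 to 4 at 1% against 2.5% protein, fell from 1 to 8 and rose from 0 to 6 within 60% fat, fell from 2 to 9 and rose from 0 to 1 within 20% fat, and the difference between fat levels was positive for 0 to 4 genes. Other lineage genes that fell ran from 11 to 30 and those that rose from 1 to 10. Log2 changes ran from -0.052 to 0.00938 for Pdgfra, from -0.013 to 0.16 for Mbp and from -0.11 to 0.026 for Mog. Of the relations, Enpp6 with Bmp4 had r = 0.69 within code D1412, 0.41 within D1407 and -0.19 as replicate differences, Mag with Mog had r = 0.94 within D1412 with an adjusted p of 0.0903 by an exact permutation test, Enpp6 with Mog had -0.45 within D1407, and Pdgfra had -0.22 with Mog and 0.031 with Enpp6 as replicate differences. Counts as low as those of Bmp4 and Trf, and 2 libraries per diet, limit what the comparisons within fat levels can show.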
